A study of Homo sapiens with 6 samples.

Results

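The genes described here are 10 transcriptional outputs and feedback inhibitors of RAF-MEK-ERK signalling, namely DUSP4, DUSP5, DUSP6, SPRY2, SPRY4, SPRED1, ETV4, ETV5, PHLDA1 and FOSL1. They were selected by gene symbol, and all 10 were found among the 19684 Ensembl genes listed for each library. The libraries were made from K1, an established papillary thyroid carcinoma cell line, after transfection with a small interfering RNA (siRNA). Of the 6 libraries, 3 received a negative control siRNA (NC) and 3 received si-NEAT1_2, an siRNA against the long isoform of the nuclear long non-coding RNA NEAT1. The NC cells thus share the transfection and the presence of a foreign duplex RNA with the si-NEAT1_2 cells, and a single siRNA sequence was used for each group. NEAT1 itself was not analysed here, and how far it was depleted is therefore not known from these data. The labels do not say whether the libraries of a group came from separate cultures, so p-values measure only the spread between these libraries, which may be technical.

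In the RAF-MEK-ERK cascade, active RAS recruits RAF kinases, which phosphorylate MEK, which in turn phosphorylates ERK. ERK then induces a set of immediate and delayed genes, among them its own inhibitors, so that the mRNA level of these outputs is widely read as a measure of pathway activity. The pathway is the main oncogenic driver of papillary thyroid carcinoma, where it is switched on by lesions of BRAF, RAS or receptor tyrosine kinases.

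Library depth lay between 22798631 and 27066025 counts. The markers fixed for thyroid follicular cells were only partly present, with TG, PAX8 and FOXE1 reaching at least 1 FPKM (fragments scaled to transcript length and library depth) and TSHR, SLC5A5 and NKX2-1 staying under 0.1 FPKM in every library. Of 6 epithelial markers, 4 reached 1 FPKM, against 2 of 6 for fibroblasts, 0 of 4 for endothelium and 1 of 5 for leukocytes. The summed leukocyte markers were 11.8 to 13.5 FPKM in the NC libraries and 15.1 to 20.0 FPKM in the si-NEAT1_2 libraries, CD68 being the member over 1 FPKM. The summed fibroblast markers were 24.8 to 28.8 FPKM in the NC libraries and 18.9 to 22.2 FPKM in the si-NEAT1_2 libraries. The part of these cell types in the results below was not tested. The first principal component of all tested genes held 51.3% of the variance and placed NC replicate 2 (-45.5) and si-NEAT1_2 replicate 2 (55.5) at its ends. In NC replicate 2 genes in the lowest quartile of GC content lay at a median of 0.37 log2 units above the gene means and genes in the highest quartile at -0.23. In si-NEAT1_2 replicate 2 these medians were -0.31 and 0.25, so that these libraries deviated in opposite directions. NC replicate 1 had 0.04 and -0.08, and NC replicate 3 had 0.09 and -0.06. Medians of -0.20 and 0.16 were found in si-NEAT1_2 replicate 3, while si-NEAT1_2 replicate 1 (0.03 and -0.03) had the direction of the NC libraries. The GC trend thus partly followed the groups, and GC content and siRNA cannot be fully told apart in these libraries.

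The output genes differed widely in level. On the FPKM scale, which divides by transcript length and so allows genes to be compared, FOSL1 was the most abundant with a mean of 136 over the 6 libraries (range 123.6 to 162.7), and it was followed by PHLDA1 at 40.6 and DUSP6 at 20.5. ETV5 (13.8), SPRY2 (9.60) and DUSP5 (8.29) were intermediate. ETV4 (4.88), SPRED1 (4.62) and SPRY4 (3.56) were lower, and DUSP4 was close to absent at 0.273 FPKM. The ranges of neighbouring genes in this order overlapped between SPRY2 and DUSP5, between ETV4 and SPRED1 and between SPRED1 and SPRY4, and the other neighbours were separate.

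**Figure D1:**
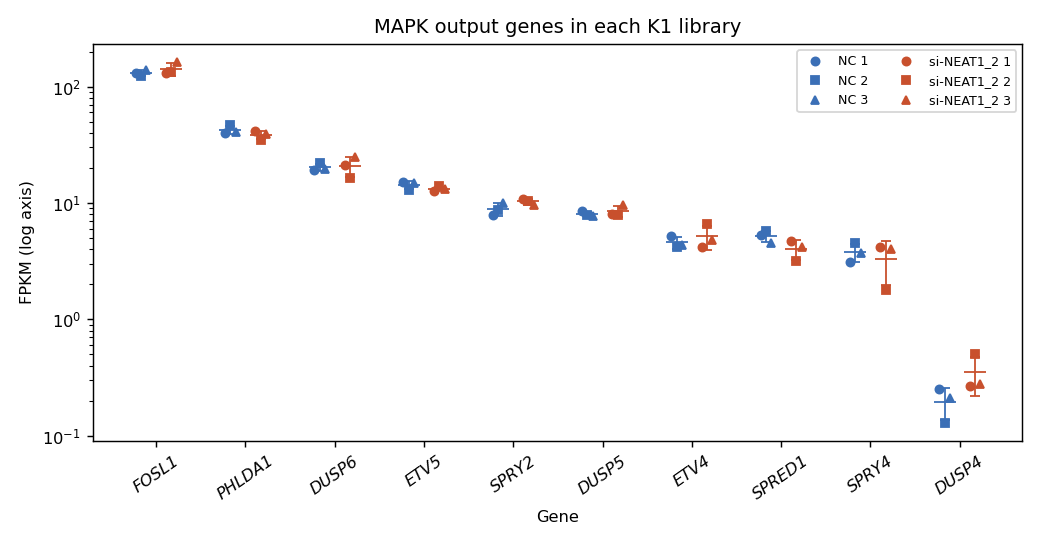
FPKM (log axis) of the 10 MAPK output genes, ordered by mean level. Points are single libraries, NC in blue and si-NEAT1_2 in red, the horizontal marks are group means and the error bars are SD (n = 3 per group). FOSL1 lies between 123.6 and 162.7 FPKM in every library, DUSP4 between 0.13 and 0.50, and the groups overlap for every gene except DUSP4.

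After transfection with si-NEAT1_2, no output gene differed from NC at the adjusted threshold. Of 13109 features tested with edgeR (quasi-likelihood test, p adjusted by Benjamini-Hochberg), 0% were called at an adjusted p under 0.05. Of the 10 genes, 0 passed this threshold, and 1, DUSP4, had an unadjusted p under 0.05, against 24.1% of all features (11.2% higher and 12.9% lower). DESeq2 called 0 of the 9 output genes to which it gave an adjusted p, beside 4.08% of all such features (441 of 10820), and gave none to DUSP4. At an unadjusted p under 0.05 it had 0 of the 10, beside 25.1% of all features. The log2 fold change was above 0 for 6 genes and below 0 for 4, where 50.9% of all features were above 0, and its median was 0.11, beside 0.01 over all features. The 95% interval of the fold change lay within 2-fold in either direction for 9 of the 10 genes, and within 1.5-fold for 5 of them. The groups did not overlap for 1 gene, DUSP4, which was higher, while 15.4% of all features lay higher without overlap and 14.1% lower.

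**Figure D2:**
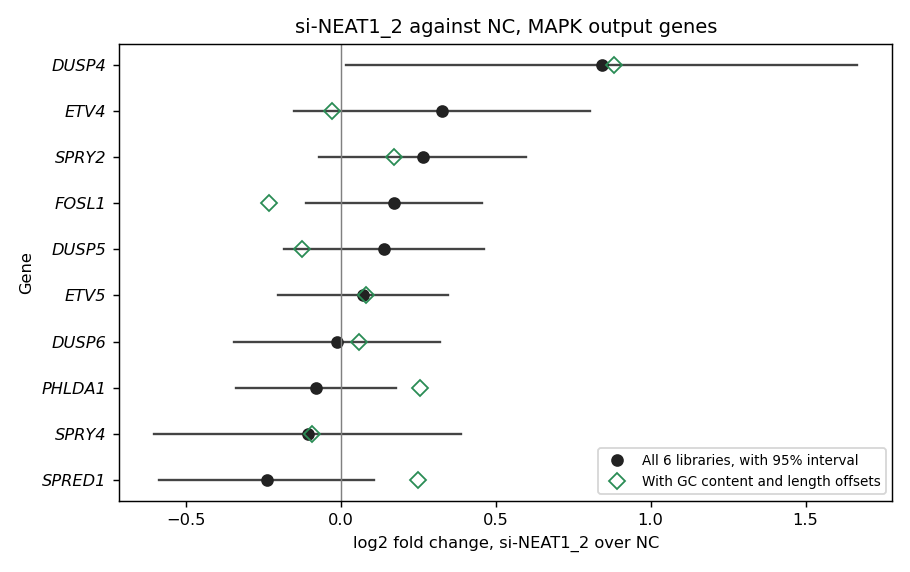
Log2 fold change of si-NEAT1_2 over NC for the 10 output genes. Filled circles and lines give edgeR's estimate with its 95% interval from 3 libraries per group, and open diamonds give the estimate after offsets for GC content and transcript length. DUSP4 has the highest value at 0.84, the intervals of the other genes include 0, and 6 of the diamonds lie on the other side of 0 from their circles.

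DUSP4, DUSP5 and DUSP6 encode dual-specificity phosphatases that remove the activating phosphates from ERK. DUSP5 is nuclear and DUSP6 cytoplasmic, and both prefer ERK, whereas DUSP4 is nuclear and also acts on other mitogen-activated kinases. DUSP6 (ENSG00000139318, chromosome 12, 89347232 to 89353271, minus strand of GRCh38) had 19.27, 22.01 and 19.64 FPKM in the NC libraries and 21.28, 16.41 and 24.62 FPKM in the si-NEAT1_2 libraries, in the order of their replicate numbers as throughout. The si-NEAT1_2 group held the lowest as well as the highest value, and the groups overlapped. Its log2 fold change was -0.01 ± 0.15 (SE, adjusted p = 0.964, edgeR), with a 95% interval of the fold change from 0.788 to 1.25. Over 1875 of its 4632 annotated exon bases DUSP6 shares its position with an antisense transcript, AC024909.2, and since the strand setting of the counting is not given in the sources used here, reads of these genes cannot be told apart.

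DUSP5 (ENSG00000138166, chromosome 10, 110497838 to 110511544, plus strand) had 8.48, 7.94 and 7.77 FPKM in the NC libraries and 8.03, 7.87 and 9.65 FPKM in the si-NEAT1_2 libraries. The si-NEAT1_2 group was spread around the NC values, with replicate 3 alone above them in FPKM. In CPM (counts scaled to the TMM-normalized library size) si-NEAT1_2 replicate 2 (21.8) was above them too, with NC at most 21.4. The log2 fold change of DUSP5 was 0.14 ± 0.15 (SE, adjusted p = 0.553, edgeR). DUSP5 had, after ETV5 and PHLDA1, the smallest ratio of highest to lowest library of the 10 genes, 1.27 in CPM, where the median over all features was 1.64.

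DUSP4 (ENSG00000120875, chromosome 8, 29333064 to 29350668, minus strand) rested on few reads. Its counts were 28, 17 and 29 in the NC libraries and 36, 53 and 37 in the si-NEAT1_2 libraries. In normalized CPM these were 1.02, 0.72 and 1.12 against 1.46, 2.23 and 1.48, so that every si-NEAT1_2 library lay above every NC library. The mean was 0.956 ± 0.209 CPM in NC and 1.72 ± 0.435 CPM in si-NEAT1_2 (SD, n = 3 each), a log2 fold change of 0.84 ± 0.37 (SE) that missed the adjusted threshold (adjusted p = 0.201, edgeR). The exact permutation test of the FPKM values gave p = 0.10, the smallest that 3 libraries against 3 allow. Counting error alone was wide, with exact Poisson intervals of 19.4 to 41.6 counts around the 29 of NC replicate 3 and 25.2 to 49.8 counts around the 36 of si-NEAT1_2 replicate 1, and only those of NC replicate 2 (9.90 to 27.2) and si-NEAT1_2 replicate 2 (39.7 to 69.3) were clearly apart. These intervals cover counting error only. The unadjusted p of DUSP4 was 0.0460 (edgeR) and was no longer under 0.05 when any of the 6 libraries was left out, while its log2 fold change was then between 0.61 (without si-NEAT1_2 replicate 2, adjusted p = 0.494, edgeR) and 0.97 (without NC replicate 3). It stayed above 0.84 in 4 of these 6 cases. Every value of DUSP4 stayed far below those of DUSP5 and DUSP6 on the FPKM scale.

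SPRY2, SPRY4 and SPRED1 belong to the Sprouty and Spred family, membrane-associated inhibitors that act between receptor tyrosine kinases and RAF and that ERK itself induces. Their log2 fold changes ran from -0.24 to 0.26 in different directions. SPRY2 (ENSG00000136158, chromosome 13, 80335976 to 80340951, minus strand) had 7.89, 8.71 and 10.08 FPKM in the NC libraries and 10.90, 10.37 and 9.67 FPKM in the si-NEAT1_2 libraries. The highest NC library lay above the lowest si-NEAT1_2 library, so the groups overlapped by a narrow margin. Its mean was 18.7 ± 2.26 CPM in NC and 22.5 ± 1.68 CPM in si-NEAT1_2 (SD, n = 3 each), a log2 fold change of 0.26 ± 0.15 (SE, adjusted p = 0.287, edgeR).

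SPRY4 (ENSG00000187678, chromosome 5, 142310427 to 142326455, minus strand) had 3.13, 4.5 and 3.74 FPKM in the NC libraries and 4.21, 1.78 and 3.99 FPKM in the si-NEAT1_2 libraries. si-NEAT1_2 replicate 2 was the lowest of the 6, while the other si-NEAT1_2 libraries lay inside the NC range. The log2 fold change was -0.11 ± 0.23 (SE, adjusted p = 0.788, edgeR) and became 0.11 without si-NEAT1_2 replicate 2 (adjusted p = 0.766, edgeR).

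SPRED1 (ENSG00000166068, chromosome 15, 38252326 to 38357249, plus strand), which brings the RAS inhibitor neurofibromin to the membrane, had 5.35, 5.70 and 4.54 FPKM in the NC libraries and 4.75, 3.19 and 4.21 FPKM in the si-NEAT1_2 libraries. Its lowest values were in the si-NEAT1_2 group, and si-NEAT1_2 replicate 1 lay inside the NC range. In CPM it averaged 37.8 ± 4.44 in NC and 32.0 ± 4.74 in si-NEAT1_2 (SD, n = 3 each), and the log2 fold change was -0.24 ± 0.16 (SE, adjusted p = 0.347, edgeR).

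ETV4 and ETV5 encode ETS transcription factors of the PEA3 group, which ERK activates and induces. ETV4 (ENSG00000175832, chromosome 17, 43527844 to 43579620, minus strand) had 5.19, 4.21 and 4.37 FPKM in the NC libraries and 4.21, 6.54 and 4.77 FPKM in the si-NEAT1_2 libraries. On the FPKM scale a single library, si-NEAT1_2 replicate 2, lay above the NC range. On the CPM scale si-NEAT1_2 replicate 3 (10.6) was above it too, with NC at most 10.2. The log2 fold change was 0.33 ± 0.22 (SE, adjusted p = 0.350, edgeR) and was 0.06 without that library, while without si-NEAT1_2 replicate 1 it was 0.48, then with an unadjusted p under 0.05 and an adjusted p of 0.146 (edgeR). ETV5 (ENSG00000244405, chromosome 3, 186046308 to 186110318, minus strand) had 15.13, 12.98 and 14.74 FPKM in the NC libraries and 12.75, 13.90 and 13.13 FPKM in the si-NEAT1_2 libraries. Its groups overlapped, and its log2 fold change in counts was 0.07 ± 0.12 (SE, adjusted p = 0.732, edgeR) and -0.10 on the log2(FPKM + 1) scale (adjusted p = 0.657, limma-trend). The transcript length implied by the ratio of count to FPKM differed between libraries by up to 1.18-fold for ETV5 and 1.40-fold for DUSP4, and least for DUSP5 and PHLDA1. ETV4 shares 68 of its 3607 exon bases with DHX8 on the opposite strand, and ETV5 shares 164 of 5802 with DGKG on the same strand.

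FOSL1 encodes FRA-1, an AP-1 transcription factor subunit whose transcription and stability both depend on ERK. It (ENSG00000175592) lies on chromosome 11, 65892049 to 65900573, on the minus strand. It had 131.06, 123.60 and 137.90 FPKM in the NC libraries and 130.51, 132.28 and 162.70 FPKM in the si-NEAT1_2 libraries. In FPKM si-NEAT1_2 replicate 3 alone was above the NC range. In CPM si-NEAT1_2 replicate 2 (223) was above it too, with NC at most 210. The mean was 199 ± 10.5 CPM in NC and 224 ± 27.5 CPM in si-NEAT1_2 (SD, n = 3 each), with a log2 fold change of 0.17 ± 0.13 (SE, adjusted p = 0.402, edgeR).

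PHLDA1 (ENSG00000139289), a small pleckstrin-homology-like protein that is induced by growth factor signalling, lies on chromosome 12, 76025447 to 76033932, on the minus strand. It had 40.15, 46.42 and 41.12 FPKM in the NC libraries and 41.28, 34.91 and 39.48 FPKM in the si-NEAT1_2 libraries. The groups overlapped, and PHLDA1 had the smallest ratio of highest to lowest library of the 10 genes, 1.19 in CPM. PHLDA1 shares 553 and 779 of its 8069 exon bases with the antisense transcripts AC011611.3 and AC011611.4. Its log2 fold change was -0.08 ± 0.12 (SE, adjusted p = 0.688, edgeR).

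The extreme values of the output genes, like those of all features, were concentrated in a few libraries. For 8 of the 10 output genes the highest or the lowest CPM value was in si-NEAT1_2 replicate 2, and for 6 of the 10 in NC replicate 2, beside 65.1% and 60.7% of all features. si-NEAT1_2 replicate 2 was highest for DUSP4, SPRY2, ETV4 and ETV5 and lowest for DUSP6, SPRY4, SPRED1 and PHLDA1. si-NEAT1_2 replicate 3 held an extreme value for 4 genes, NC replicate 1 for 1, NC replicate 3 for 1 and si-NEAT1_2 replicate 1 for 0, beside 29.1%, 17.1%, 14.3% and 13.7% of all features. In si-NEAT1_2 replicate 2, DUSP4 deviated by 0.82 log2 units from its mean over the 6 libraries, ETV4 by 0.60, SPRED1 by -0.36 and SPRY4 by -0.61.

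**Figure D3:**
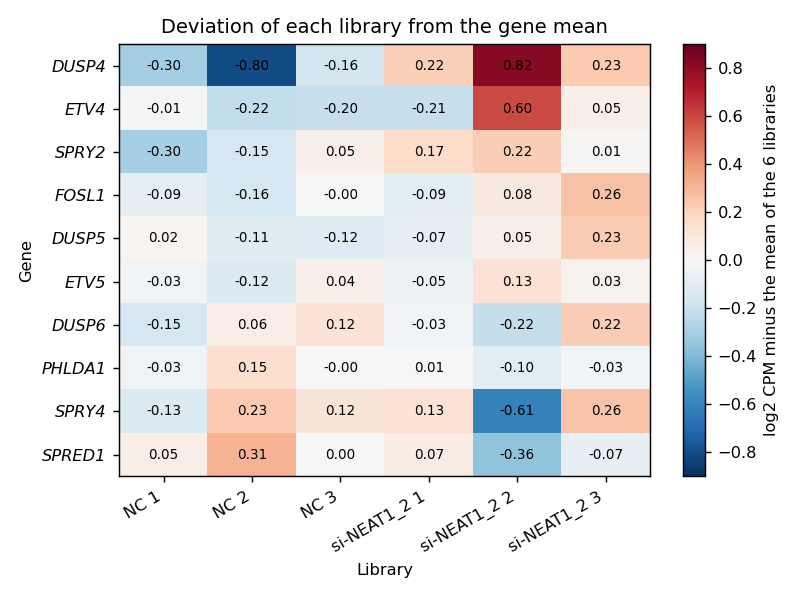
Deviation of log2 CPM from the mean of the 6 libraries, for each output gene (rows, ordered by log2 fold change) and library (columns), with red for higher and blue for lower. The widest deviations are in si-NEAT1_2 replicate 2, from -0.61 for SPRY4 to 0.82 for DUSP4, and in NC replicate 2 for DUSP4 at -0.80.

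The direction of several of these differences changed once GC content and transcript length were allowed for. Among the 10 genes, GC content of the longest annotated transcript was lowest in SPRED1 (38.92%) and PHLDA1 (44.34%) and highest in ETV4 (60.81%) and FOSL1 (60.04%), and PHLDA1 (8069 bases) and SPRED1 (7780 bases) were also the longest, where the medians of all Ensembl genes tested were 48.0% and 3745 bases. After offsets for GC content and length were added to each library, 6 of the 10 genes changed the sign of their log2 fold change, as did 29.7% of all genes fitted. FOSL1 went from 0.17 to -0.23, DUSP5 from 0.14 to -0.12, ETV4 from 0.33 to -0.03, SPRED1 from -0.24 to 0.25, PHLDA1 from -0.08 to 0.26 and DUSP6 from -0.01 to 0.06. DUSP4 stayed at 0.88, SPRY2 at 0.17, ETV5 at 0.08 and SPRY4 at -0.09. With these offsets 0 of the 10 had an adjusted p under 0.05 (edgeR), beside 0.0795% of all genes fitted, and the lowest were 0.275 for SPRED1, 0.285 for PHLDA1 and 0.290 for DUSP4. At an unadjusted p under 0.05 there were then 3, namely DUSP4, SPRED1 and PHLDA1, beside 16.4% of all genes fitted. The same 3 had groups that did not overlap, each higher in si-NEAT1_2, while 9.95% of all genes fitted were higher without overlap and 12.4% lower.

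The labels give each library a code, L2, L3 or L4, whose meaning they do not state. With the same code L2 were NC replicates 2 and 3 and si-NEAT1_2 replicate 2, with L3 NC replicate 1 and si-NEAT1_2 replicate 3, and si-NEAT1_2 replicate 1 alone had L4, so that L4 gives no comparison. Within L2, 6 of the 10 genes were higher in si-NEAT1_2, with a median log2 ratio of 0.16, and within L3, which sets 1 library against 1, 9 were higher, with a median of 0.26. Of all features 49.6% were higher within L2 and 49.7% within L3. Higher within both were 6 of the 10, namely DUSP4, DUSP5, SPRY2, ETV4, ETV5 and FOSL1, beside 34.2% of all features. Lower within both was 1, SPRED1, beside 34.8%. The log2 ratios of DUSP4 were 1.27 and 0.54, and those of SPRED1 were -0.53 and -0.12. DUSP6 was at -0.31 within L2 and at 0.38 within L3, and SPRY4 at -0.79 and 0.39. With the code as a covariate 0 of the 10 genes were called, and DUSP4 had a log2 fold change of 0.96.

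The authors also deposited a table with a value per group, without replicates, and its values for the output genes differed from those of the libraries in both level and direction. How this table was made is not given in the sources used here, nor whether it came from these 6 libraries. Its total counts of 17678761 for NC and 19579897 for si-NEAT1_2 lie below those of every library. ETV4 had an expected count of 2718 for NC in it, while the NC libraries had 279, 208 and 230. The group values are thus neither plain means nor plain sums of the library counts. Comparisons of this table with the libraries may therefore set different data side by side. Whether the FPKM of the tables were normalized alike is not given either, so levels set across them carry that limit as well. In the group table ETV4 had 70.9 FPKM for NC and 46.2 FPKM for si-NEAT1_2, while it never exceeded 6.54 FPKM in a library. FOSL1 had 606.5 and 576 FPKM, SPRY2 43.3 and 35.1, PHLDA1 118 and 94.7, and DUSP5 23.1 and 49.4. For 8 of the 10 genes both group values lay above the highest of the 6 libraries. DUSP4 did not reach 1 FPKM in any library, and without it the count was 7 of 9, beside 18.4% of the 10520 genes that reached 1 FPKM in each table (49.7% lay outside the library range, above or below). Of the 9 output genes with at least 1 FPKM in both, the NC group value was at least 2 times the mean of the NC libraries for 6 and at most 0.5 times for 0, beside 12.1% and 16.1% of the 10275 such genes. The median log2 ratio of NC group value to NC library mean was 1.48 for these 9 and -0.22 for the 10275. The exceptions to the higher level were DUSP6, with 18.3 FPKM for NC and 32.0 for si-NEAT1_2, and SPRED1, with 7.32 and 4.70.

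Between the columns of the group table, 3 output genes were higher for si-NEAT1_2 and 7 were lower. DUSP5 had a ratio of 2.14, DUSP6 of 1.75 and SPRY4 of 1.72, while DUSP4 had a ratio of 0.375, ETV5 of 0.508, SPRED1 of 0.642 and ETV4 of 0.651. SPRY2 (0.811), PHLDA1 (0.800) and FOSL1 (0.950) were nearer to 1. Of the 9 output genes with at least 1 FPKM in both columns, all but DUSP4, a ratio of at least 2 was held by 1 and one of at most 0.5 by 0, beside 3.06% and 10.4% of the 10209 such genes. The sign of the difference was the same as in the libraries for 3 of the 10 genes, DUSP5, SPRED1 and PHLDA1, and with the offsets for GC content and length for 3 others, DUSP6, ETV4 and FOSL1. For 8 of the 10 the group ratio fell outside the 95% interval of the fold change between the libraries, DUSP4 among them, with group values of 1.86 FPKM (NC) and 0.697 FPKM (si-NEAT1_2). No error can be given for the group values.

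**Figure D4:**
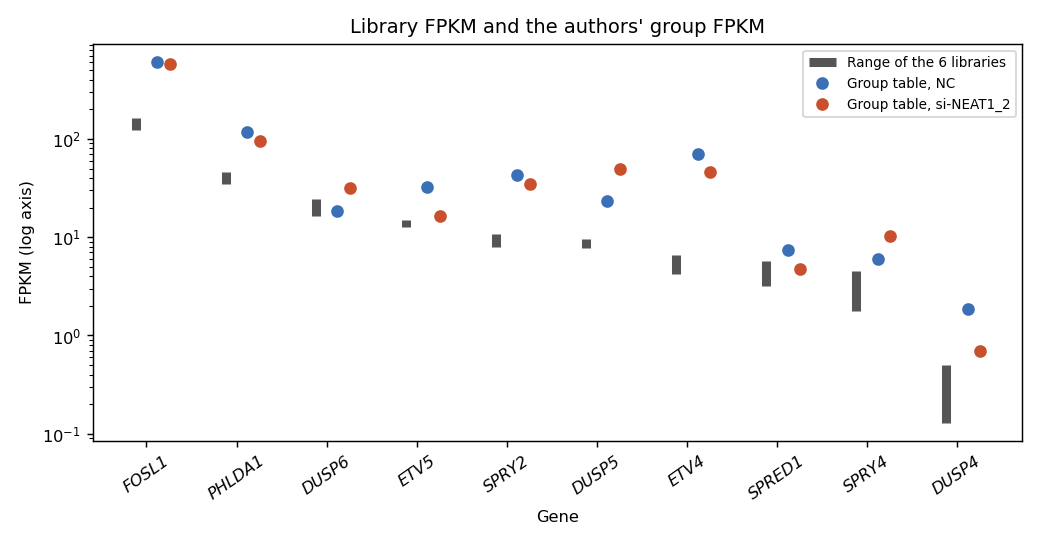
FPKM (log axis) of the output genes in the 6 libraries (grey bars, lowest to highest) and in the authors' group table (blue NC, red si-NEAT1_2, a single value each). For 8 of the 10 genes both group values lie above the bar, and ETV4 stands at 70.9 and 46.2 FPKM against at most 6.54 in a library.

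Other genes of the pathway were examined in 3 lists, with 0 members called at an adjusted p under 0.05 in any of them (edgeR). Of 25 genes of the cascade itself, from adaptors to ERK substrates, 2 were higher and 5 lower at an unadjusted p under 0.05. The shares of all features were 11.2% and 12.9%, and the median log2 fold change of the cascade was 0.08. Its smallest p values were those of ELK4, an ETS factor phosphorylated by ERK, PTPN11, the phosphatase SHP2 that couples receptors to RAS, BRAF, and MAP2K2, which encodes MEK2. PTPN11 had 45.07, 53.96 and 47.49 FPKM in NC and 39.19, 18.26 and 31.39 FPKM in si-NEAT1_2, a log2 fold change of -0.60 that was -0.29 with the offsets for GC content and length (adjusted p = 0.170 and 0.224, edgeR). BRAF had means of 4.15 FPKM in NC and 2.81 FPKM in si-NEAT1_2, with a log2 fold change of -0.59 that was -0.11 with the offsets. MAP2K2 was at 0.49 and at 0.20 with the offsets, and ELK4 at -0.78 and -0.26. These 4 kept their direction with the offsets, and each was then smaller, while 11 of the 25 changed sign and the median of the list became -0.04.

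Among 26 tested of 28 other ERK output genes, 6 were higher and 2 lower at an unadjusted p under 0.05, shares to be read beside the 11.2% and 12.9% of all features, and the median was 0.20. EGR3 and MMP3 did not pass the filter on low counts. JUNB, an AP-1 subunit, had 34.35, 29.52 and 35.50 FPKM in NC and 43.05, 51.95 and 48.94 FPKM in si-NEAT1_2. The log2 fold change of JUNB was 0.60 ± 0.15 (SE, adjusted p = 0.170, edgeR), and 0.18 with the offsets (adjusted p = 0.302, edgeR). CXCL8, the chemokine interleukin-8, which is also under NF-kB control, had 19.21, 21.86 and 21.59 FPKM in NC and 28.52, 28.55 and 27.37 FPKM in si-NEAT1_2. Its log2 fold change was 0.52, and 0.72 with the offsets for GC content and length, with an adjusted p of 0.0605 (edgeR). Its group values were 1289 FPKM (NC) and 6827 FPKM (si-NEAT1_2), far above the libraries. HMGA1, an architectural chromatin protein, was at 0.53 and EREG, an EGF receptor ligand, at -0.64, and these became 0.17 and -0.23 with the offsets. With the offsets 8 of the 26 changed sign and the median of this list was 0.01.

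Of 22 tested negative regulators other than the output genes above, 2 were higher and 5 lower at an unadjusted p under 0.05. The shares of all features were 11.2% and 12.9%, and the median of the list was -0.09. SPRY1 did not pass the filter. RASA1 and RASA2, which encode GTPase-activating proteins of RAS, had log2 fold changes of -0.63 and -0.80, CBL, a ubiquitin ligase for receptor tyrosine kinases, of -0.53, and DUSP8, a phosphatase of stress-activated kinases, of 0.60 (adjusted p = 0.170 for RASA1 and RASA2, 0.185 for CBL and 0.176 for DUSP8, edgeR). For each of these the NC and si-NEAT1_2 groups did not overlap, which goes with their choice for the smallest p of the list. Of the whole list 1 gene was higher and 7 lower without overlap, beside 15.4% and 14.1% of all features. With the offsets RASA1 was at -0.41, RASA2 at -0.34, CBL at -0.25 and DUSP8 at 0.40. Of the 22, 4 changed sign with the offsets, and the median became -0.12.

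**Figure D5:**
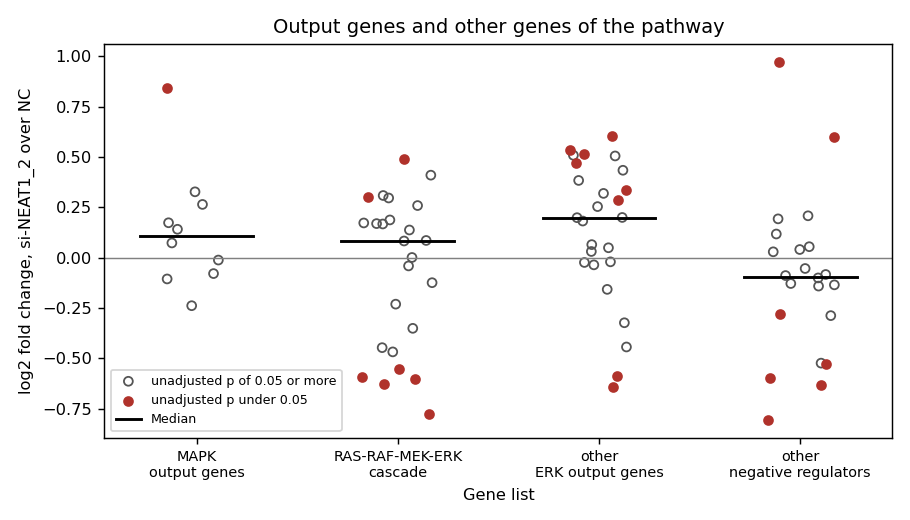
Log2 fold change of si-NEAT1_2 over NC for the 10 output genes and the 3 other lists of pathway genes. Each point is a gene, filled where its unadjusted p is under 0.05, and the black line is the median, at 0.11, 0.08, 0.20 and -0.09 from left to right.

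Likeness to DUSP6 was measured as the mean absolute difference of log2 CPM, each gene centred on its own mean over the 6 libraries. The closest genes were BCORL1 (0.04), DNMT3A (0.04) and PXK (0.04), where the median over all Ensembl genes tested was 0.23. The other output genes lay between 0.12 for PHLDA1 and 0.43 for DUSP4, and SPRY2, ETV4 and DUSP4 were the farthest. RefSeq promoter windows of 300 bases (GRCh38.p14) were matched for 5 of the 10 genes. The AP-1 motif TGANTCA was in 0 of the 5 and the ETS motif CCGGAAG in 0 of the 5, on either strand, beside 7.76% and 10.7% of all 27305 windows, so that these letters are not in these windows.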

How the data were processed

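Messenger RNA of K1 cells was sequenced in 6 libraries. The methods name TopHat2 for mapping and RSEM for quantification, whereas the submitters' processing notes list fastp 0.18.0, Bowtie2 2.2.8, HISAT2, StringTie 1.3.1 and GRCh38. The annotation is not given in the sources used here. The deposited expected counts are estimates per gene, not normalized. The authors also deposited FPKM, which adjusts for transcript length and depth. How the group table was made is not given in the sources used here. The 838 unannotated loci of each library, with at most 0.447% of its counts, were kept in the fit.

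Expected counts were rounded, filtered with filterByExpr, scaled by TMM and tested with edgeR 4.0.16 in R 4.3.3 (quasi-likelihood, Benjamini-Hochberg over 13109 features). limma 3.58.1 and DESeq2 1.42.0 were alternatives, as were the normalization, filters, pseudocounts (1 or 0.1), a replicate block, the library code, GC content and length offsets (splines with 5 degrees of freedom per library, GENCODE release 29) and leaving out each library. FPKM of single genes was compared by an exact permutation test (two-sided). The test was checked on simulated data. The genes and lists were chosen with earlier results of these data known. Genes named were the 10 outputs, the 4 with the smallest p in each pathway list and the 3 closest to DUSP6. Symbols matched the reference for all 10.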

Additional observations from a re-analysis of the deposited data

How the results depend on the processing

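No output gene with an adjusted p was called under any of the 17 alternatives (DESeq2 gave none to DUSP4), and the log2 fold changes kept their sign in 150 of 170 cases. The cause was not tested where they did not. With the offsets for GC content and length the values were -0.12 (DUSP5), 0.0591 (DUSP6), 0.25 (SPRED1), -0.0271 (ETV4), 0.26 (PHLDA1) and -0.23 (FOSL1), and with the replicate block added -0.13, 0.0580, 0.25, -0.0404, 0.24 and -0.24. On log2(FPKM + 1) and log2(FPKM + 0.1), DUSP6 was at 0.0153 and 0.0152 and ETV5 at -0.0980 and -0.10. Leaving out libraries gave -0.13 to 0.0766 for DUSP6 and -0.27 to 0.11 for SPRY4, reversed without si-NEAT1_2 replicate 2 for both, and without NC replicates 2 or 3 for DUSP6.

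The features called numbered 0, and 1 without TMM, 441 with DESeq2, 1 with log2(FPKM + 0.1), 24 without a filter and 10 with the offsets. Leaving out libraries gave 0 to 613, the highest without si-NEAT1_2 replicate 1 and 6 without si-NEAT1_2 replicate 2. The 3 lists of other pathway genes had 25, 26 and 22 genes tested in the main fit, of which 0 were called. With DESeq2 6 were called, beside 4.08% of all features with an adjusted p (441 of 10820). When libraries were left out 0 to 10 were called, the 10 without si-NEAT1_2 replicate 1, beside 613 of 13284 features. Of the 10 output genes, 1 had an unadjusted p under 0.05. This count was 0 without TMM, with DESeq2 and without a filter, beside 22.2%, 25.1% and 19.8% of all features. With limma-trend it was 0 at pseudocounts of 1 and 0.1, beside 21.3% and 21.1%. With the library code, the replicate block, and block and offsets together it was 0, beside 28.5%, 11.7% and 9.74%. It was 3 with the offsets, beside 16.4%, and 0 to 1 when libraries were left out, beside 8.08% to 33%. Groups did not overlap for 1 gene, for 3 with the offsets with or without the block, and for 1 to 5 when libraries were left out, the 5 without si-NEAT1_2 replicate 1 (DUSP4, DUSP5, ETV4, FOSL1 and SPRED1). Of all features, 29.5% did not overlap, 22.3% with the offsets, and 32.7% to 52.3% when libraries were left out, the 52.3% without si-NEAT1_2 replicate 1. The median log2 fold change of the 10 was 0.11, 0.0408 on log2(FPKM + 1), and 0.07 to 0.15 when libraries were left out. From group counts scaled to their totals, the group ratio of ETV5 was 0.481 in place of 0.508 and that of FOSL1 0.927 in place of 0.950.

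The methods speak of pairs of NC and si-NEAT1_2 cells, without saying which libraries form a pair. Libraries sharing a replicate number had correlations of -0.25, -0.32 and -0.01 between their deviations from group means. The main fit did not take the numbers as pairs, and a pairing by number was fitted only as the replicate block. The replicate block left the count of calls at 0. Depth limits DUSP4 most, with 17 to 53 counts per library.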
